A study of Homo sapiens with 21 samples.

Results

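Replication-dependent histone genes encode the bulk of the histones that package newly made DNA, and 66 of the 42339 genes in the count table belong to them. They were chosen by a rule on names, with earlier results of these data known. Their symbols follow the H2AC, H2BC, H3C or H4C numbering of the histone clusters or name the linker histone genes H1-1 to H1-6. The rule matches 69 symbols, of which H2AC15, H2AC18 and H2AC19 were not analysed here. The 66 genes comprise 6 encoding the linker histone H1, 14 encoding H2A, 18 encoding H2B, 13 encoding H3 and 15 encoding H4. On GRCh38, 54 of them lie on chromosome 6, 11 on chromosome 1 and 1, H4C16, on chromosome 12.

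The data are RNA-seq counts from BT-549 cells, an established triple-negative breast cancer (TNBC) line labelled as wild type, in 7 groups with 3 cultures each. The 2D cells were grown as monolayers and the 3D cells as mammospheres, which are spheres grown without attachment, at serial passage 6. A further group held such 3D cells treated with 0.75 µmol/L GO-203, a peptide directed against the MUC1-C subunit. The tet-MUC1shRNA mammospheres at passage 6 and the tet-MYCshRNA mammospheres at passage 8 carry a doxycycline-inducible hairpin and received 0.1% DMSO as vehicle or 500 ng/ml doxycycline (DOX). Each gene was silenced with 1 hairpin, and no line with a control hairpin was analysed here, so DOX itself and the loss of the target cannot be told apart. The passage of the tet-MYCshRNA mammospheres is as in their titles, and the sources used here differ on it. The labelled passage, the line and the set of libraries differ together between the tet-MUC1shRNA and tet-MYCshRNA mammospheres and also cannot be told apart. All samples come from 1 cell line, and p-values measure the spread between its cultures.

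These genes are transcribed mainly in S phase, when a cell copies its DNA. Their transcripts are unusual in that they are not normally polyadenylated: the 3′ end is a short stem-loop that the stem-loop binding protein SLBP holds and the U7 snRNP helps to cut. Some members also give a polyadenylated transcript, for instance when cells leave the cycle or when processing at the stem-loop fails. The libraries here were made with a kit that selects polyadenylated RNA, so a level below is that of the captured part, and whether the uncaptured transcripts moved with it was not tested.

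All 66 genes hold this stem-loop in the genome, between 22 and 62 bases after the stop codon. Each has a paired stem of 6 bases and a loop of 4. The letters that the 66 sites share are GGCNCTTNTNAGNGCC, with N where they differ, so all 66 match them by construction. Within 150 bases after the stop codon, on the strand of the gene, 4 of 4062 other protein-coding genes of the same chromosomes held these letters (0.0985%). A fully paired stem-loop of these lengths that starts with GG and has T first in its loop was there in 130 of them (3.2%). The other genes are all those outside the 66 and may include further histone genes. The following 6 sites of GRCh38 are shown because they belong to the genes the results turn on, with the 16 bases of the stem-loop in capitals and 5 bases on each side.
H1-3, chr6:26234212-26234237, minus strand: taaacGGCTCTTTTCAGAGCCaccca
H2BC14, chr6:27815464-27815489, plus strand: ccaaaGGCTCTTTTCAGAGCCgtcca
H2BC21, chr1:149886183-149886208, minus strand: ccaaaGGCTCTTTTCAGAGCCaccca
H3C12, chr6:27890315-27890340, minus strand: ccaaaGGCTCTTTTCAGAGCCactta
H4C8, chr6:26285126-26285151, minus strand: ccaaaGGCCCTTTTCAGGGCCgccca
H4C9, chr6:27139649-27139674, plus strand: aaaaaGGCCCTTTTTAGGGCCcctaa
The form shown for H1-3, H2BC14, H2BC21 and H3C12 is the commonest, in 38 members. The form of H4C8 occurs in 10 members, all encoding H4, and that of H4C9 in 4, which are H4C9, H4C12, H4C14 and H4C15. A further 9 members, among them H2BC4, H2BC5 and H2BC12, hold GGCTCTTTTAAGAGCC.

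Promoters carried different letters by class. Of the 66 members, 61 had an entry in the RefSeq promoter table (GRCh38.p14, from 250 bases before to 50 after the start), and 26 of these (42.6%) held the octamer ATTTGCAT on either strand, against 1.8% of all 27305 promoters. The octamer, a binding site of the transcription factor OCT1, was in 11 of 13 H2A and 14 of 18 H2B promoters, in 1 of 11 H3 promoters and in none of the 6 H1 or 13 H4 promoters. The H3 promoter is that of H3C4, whose window holds the same site as that of H2AC7, so this site is counted for both genes. CCAAT was found in 83.6% of the members and in 35.7% of all promoters, TATAAA in 65.6% against 12%. The MYC-binding E-box letters CACGTG were in 0 of 61 members' windows and in 7.43% of all promoters, which says only that those letters are not in these windows. There were 13 head-to-head pairs of members on opposite strands, 11 of them an H2A gene and an H2B gene. The following 2 windows are shown because each lies between such a pair and is shared by both genes, with the octamer in capitals as read on the strand of the gene named first.
H2BC14 and H2AC14, chr6:27814964-27814991, plus strand: tctactcctaATTTGCATaataacattt
H2BC21 and H2AC20, chr1:149886711-149886738, minus strand: cggagccctaATTTGCATaaggtggtta

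Library totals ran from 38026597 to 99751717 counts, and the 66 genes took between 0.160% and 0.570% of them. Levels are given as CPM, counts scaled to the size of each library, with TMM factors over the 21 libraries. The deposited table lacks values for different genes in the 2D and 3D, GO-203, tet-MUC1shRNA and tet-MYCshRNA libraries, which may have been counted separately, so levels set across these sets are a description. Each targeted gene fell in its own line. MUC1 was at 83.1 to 101 CPM with vehicle and 19.7 to 23.3 with DOX in tet-MUC1shRNA mammospheres, and MYC at 386 to 439 with vehicle and 244 to 297 with DOX in tet-MYCshRNA mammospheres. Each also moved when the other was silenced, MYC upward from 239 to 255 CPM to 273 to 293 on MUC1 silencing (log2 fold change 0.25, edgeR adjusted p = 5.0e-05), and MUC1 upward from 66.5 to 73.4 CPM to 139 to 194 on MYC silencing (1.25, adjusted p = 5.1e-06). Among marker genes, VIM, which is typical of mesenchymal-like lines such as BT-549, was at 1075 CPM or more in every library, while EPCAM, an epithelial marker, and the leukocyte markers PTPRC and CD3E stayed below 1.5 CPM, and the endothelial marker PECAM1 reached at most 10.05 CPM.

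KRT5, a basal epithelial keratin on the same marker list, moved with the groups. KRT5 was at 0 to 0.068 CPM in 2D libraries, 22.1 to 25.8 in 3D libraries and 90.4 to 97.8 with GO-203. It was at 0.826 to 1.62 CPM with vehicle and 14.5 to 16.4 with DOX in tet-MUC1shRNA mammospheres, and at 3.85 to 6.61 and 54.6 to 73.0 in tet-MYCshRNA mammospheres. KRT5 was thus higher wherever the summed histone level was lower on treatment or silencing, without overlap. It was also higher in 3D than in 2D libraries, where the ranges of the summed histone level overlapped. Of all genes 11.1% rose with GO-203, 30.7% on MUC1 silencing and 30.3% on MYC silencing. The part of KRT5, or of the cells that carry it, in the histone changes was not tested.

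The summed level of the 66 genes was 3815, 4487 and 3917 CPM in the 2D libraries and 4938, 4282 and 4813 in the 3D libraries. The 2D and 3D ranges overlapped. With GO-203 the sums were 3339, 3316 and 3183 CPM, all below the untreated 3D libraries. In tet-MUC1shRNA mammospheres they were 2726, 2390 and 2380 CPM with vehicle and 1649, 1566 and 1511 with DOX, a mean fall of 37.0% with no overlap. In tet-MYCshRNA mammospheres they were 5663, 5093 and 4715 CPM with vehicle and 1593, 2086 and 2034 with DOX, a mean fall of 63.1% with no overlap. In bulk RNA, fewer cells in S phase and less histone RNA per cell cannot be told apart.

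**Figure D1:**
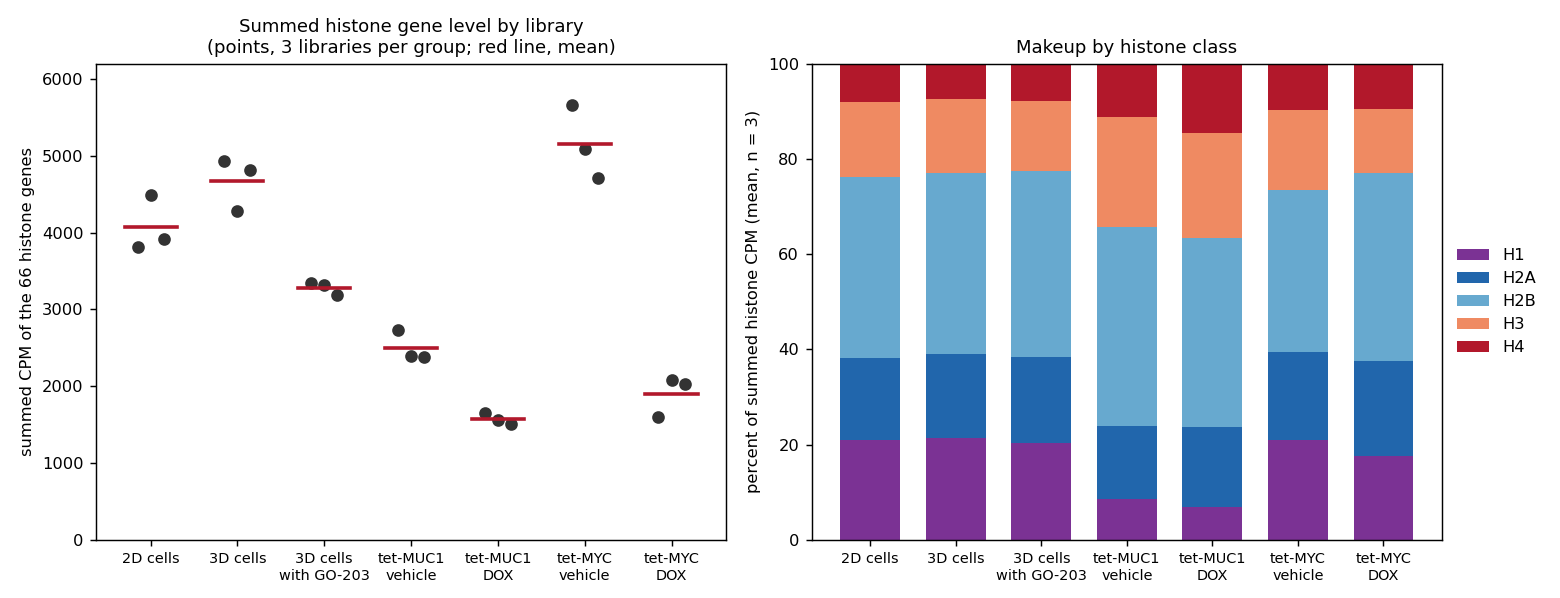
Left, the summed CPM of the 66 histone genes in each of the 21 libraries (points) with the mean of each group (red line). Right, the mean percent of that sum contributed by the H1, H2A, H2B, H3 and H4 genes in each group; H1 genes gave 8.47% in tet-MUC1shRNA mammospheres with vehicle and 20.4% to 21.4% in the 2D, 3D, GO-203 and tet-MYCshRNA vehicle groups.

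The makeup of the sum also differed between lines. H1 genes gave 19.99% to 22.3% of the summed CPM in 2D libraries, 21.1% to 21.6% in 3D libraries and 20.5% to 21.6% in tet-MYCshRNA vehicle libraries, but 8.38% to 8.63% in tet-MUC1shRNA vehicle libraries and 6.33% to 7.13% with DOX. H3 genes gave 22.8% to 23.2% in tet-MUC1shRNA vehicle libraries and 13.98% to 17.8% in 2D libraries. The tet-MUC1shRNA libraries thus stood apart from all the others in their low H1 share, before any DOX.

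A few members carried much of this signal. H2BC21, an H2B gene with a long annotated 3′ UTR, had the highest mean over the 21 libraries, 375 CPM, followed by H1-2 at 207 and H1-5 at 205. The order differed between groups. H2BC21 had the highest mean in all groups but tet-MYCshRNA with vehicle, where H1-5 was at 428 CPM, H2AC20 at 322, H2BC21 at 312 and H1-2 at 300.1, and H1-5 was at 29.1 CPM in tet-MUC1shRNA mammospheres with vehicle. Per kilobase of exon the order over the 21 libraries was different, led by H2AC20 at 410 CPM per kb, H3C3 at 327 and H1-2 at 283. H2BC21, at 169, also stood below H1-5 at 257, H3C2 at 211 and H2BC12 at 195. At the other end, 11 members stayed below 100 counts in every library. They include H2AC1, H2BC1, H1-1 and H1-6, known as genes of the germ line or of few tissues, and H4C6, H4C7 and H4C13. H3C4, H2AC7 and H2AC17 are also among them. Of their exon bases 96.6%, 85.3% and 71.0% are annotated to another gene on the same strand, so their counts are uncertain.

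The shares of some near-identical copies differed between libraries. H4C11 and H4C12 share over 92% of their 50-base stretches with other genes, and H4C11 took 80.7% to 84.1% of the counts of the pair in tet-MUC1shRNA vehicle libraries but 8.41% to 11.2% in 2D libraries. H3C14 took 22.9% to 24.3% of the counts of H3C14 and H3C15 in tet-MUC1shRNA vehicle libraries and 75.2% to 82.7% in 2D libraries. The pair levels differed as well. H4C11 and H4C12 together had a mean of 71.2 CPM in 2D and 31.7 in tet-MUC1shRNA vehicle libraries. For H3C14 and H3C15 the means were 11.1 and 41.2 CPM. Whether reads were divided differently or levels differed was not tested. The deposited counts of these 4 genes, chosen after their values were seen, are therefore uncertain singly, although both members of a pair move on DOX within a line. By contrast, H2AC13 was higher than H2AC14, and H4C14 higher than H4C15, in every group. In all, 14 members share at least 50% of their 50-base stretches with other genes.

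**Figure D2:**
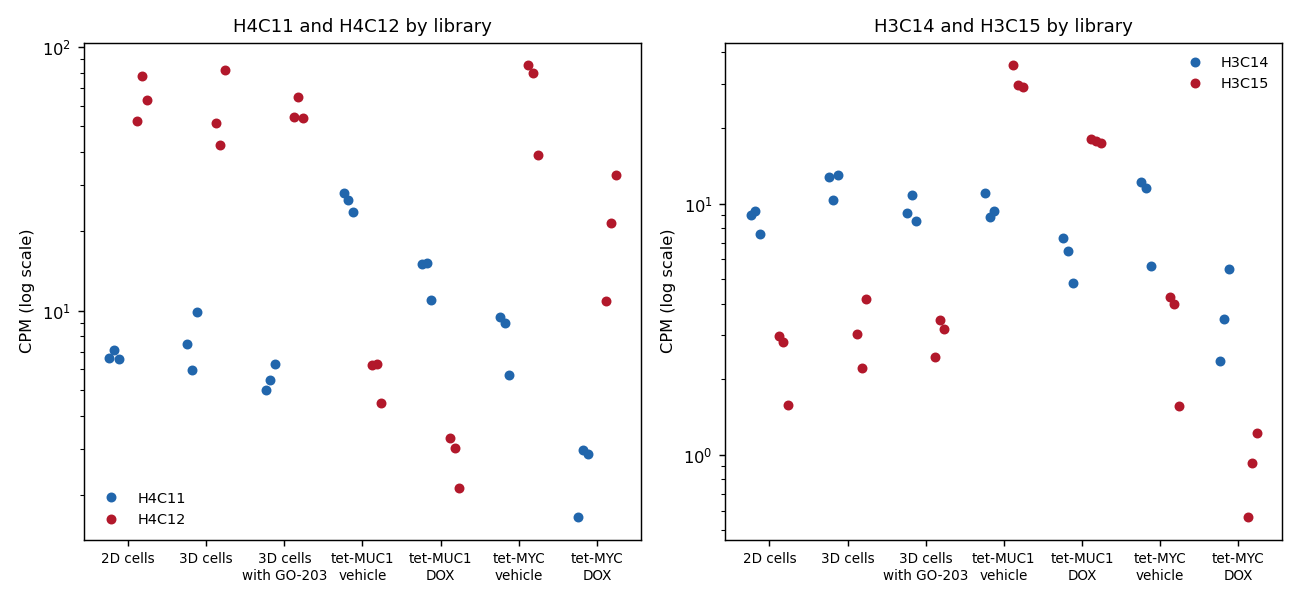
CPM (log scale) of the near-identical genes H4C11 and H4C12 (left) and H3C14 and H3C15 (right) in each of the 21 libraries, 3 points per gene and group. H4C12 is the higher of its pair in all groups but the tet-MUC1shRNA ones, where H4C11 takes 80.7% or more of the pair's counts.

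In the comparison of 3D with 2D cells, which asks what changes when the cells grow as serially passaged mammospheres, histone genes went both ways. By edgeR's quasi-likelihood test at an adjusted p below 0.1, 25 of 56 tested members were upregulated, 7 were downregulated and 24 did not pass. Over all genes tested 32% were upregulated and 31.7% downregulated. The changes were small, with a median log2 fold change of 0.19 against -0.01 for all genes, and 0 members also passed an absolute log2 fold change of 1.5, which 6.9% of all genes did upward and 9.29% downward. In either direction 63.7% of all genes passed the adjusted p. The 2D and 3D libraries did not overlap for 25 members, against 64.2% of all genes. Without 2D replicate 1 the downregulated members numbered 11.

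The largest change was a fall of H2BC14, an H2B gene of the chromosome 6 cluster. H2BC14 was at 32.4, 34.2 and 28.5 CPM in 2D libraries and 13.6, 11.5 and 12.4 in 3D libraries. The groups lay far apart, with a log2 fold change of -1.35 (SE 0.09, edgeR adjusted p = 1.6e-09). H2BC9, another H2B gene of that cluster, was at 61.9, 75.7 and 74.6 CPM in 2D libraries and 39.2, 38.1 and 40.9 in 3D libraries. It too was lower in each 3D library, with a log2 fold change of -0.85 (SE 0.08, adjusted p = 5.9e-08). The other downregulated members were H2BC7, H3C7, H2AC4, H2AC7 and H2AC14, all on chromosome 6. H2AC7 had only 44 to 82 counts in 2D and 22 to 32 in 3D libraries. H3C7 (-0.18, adjusted p = 0.072) and H2AC14 (-0.35, adjusted p = 0.035) passed although their 2D and 3D ranges overlapped, and H2AC14 no longer did so without 2D replicate 2, 2D replicate 3, 3D replicate 2 or 3D replicate 3.

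Upward, H2BC26, an H2B gene on the long arm of chromosome 1, stood first. H2BC26 was at 9.6, 12.1 and 11.5 CPM in 2D libraries and 23.8, 20.6 and 20.4 in 3D libraries, with no overlap and a log2 fold change of 0.96 (SE 0.10, adjusted p = 4.7e-07). Its head-to-head neighbour H2AC25 was upregulated by 0.70 (SE 0.11). H4C14, which shares 97.5% of its 50-base stretches with other genes, was at 8.78, 8.27 and 8.65 CPM and then at 12.8, 12.2 and 19.3, a log2 fold change of 0.78 (SE 0.14, adjusted p = 2.0e-04). Of the 11 members tested on chromosome 1, 9 were upregulated and none fell (median 0.42), while of 44 on chromosome 6, 16 were upregulated and 7 downregulated (median 0.08). Among the 9 of chromosome 1, H2BC18, H3C13, H3C14, H4C14 and H4C15 each share 50.6% or more of their 50-base stretches with other genes. Over all genes tested 32% were upregulated. The difference between chromosomes was not tested.

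Silencing MUC1 asks which of these changes depend on MUC1 in mammospheres, and most histone genes fell. Of 56 tested members 48 were downregulated, 1 was upregulated and 7 did not pass, against 31.6% of all genes downregulated and 30.7% upregulated. The median log2 fold change was -0.63, against 0.02 for all genes. Vehicle and DOX libraries did not overlap for 49 members, against 62.4% of all genes. Scaling by library size alone moved the median of all genes up by 0.165 on the log2 scale and gave 42 downregulated and 4 upregulated members. The upregulated count was 2 or 3 when any 1 library was left out.

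The H1 genes had the lowest median of the classes. H1-3, a linker histone gene, was at 20.7, 21.2 and 20.3 CPM with vehicle and 5.77, 6.13 and 5.36 with DOX, a log2 fold change of -1.82 (SE 0.09, adjusted p = 1.8e-13). It was the 1 member past an absolute log2 fold change of 1.5 in this comparison, against 5.74% of all genes upward and 3.08% downward. All 4 tested H1 genes were downregulated (median -0.94), as were 10 of 11 H2A (median -0.51), 15 of 17 H2B (median -0.68), 11 of 12 H3 (median -0.75) and 8 of 12 H4 genes (median -0.39). Differences between classes were not tested.

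H2BC26 was at 16.5, 16.8 and 12.96 CPM with vehicle and 5.29, 5.26 and 6.04 with DOX, a log2 fold change of -1.46 (SE 0.11, adjusted p = 4.6e-10). H2BC14 was at 9.74, 8.44 and 10.0 CPM with vehicle and 4.07, 2.90 and 3.54 with DOX, a log2 fold change of -1.41 (SE 0.13, adjusted p = 9.9e-09). H3C11, an H3 gene, was at 30.1, 25.4 and 26.1 CPM with vehicle and 11.2, 10.99 and 8.92 with DOX, a log2 fold change of -1.36 (SE 0.09, adjusted p = 2.8e-11). For each of these genes every DOX library was below every vehicle library. H2BC14 thus fell both in mammospheres relative to monolayers and again on MUC1 silencing, while H2BC26 rose in the first comparison and fell in the second.

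The exception was H4C9, an H4 gene singled out after its values were seen. H4C9 (ENSG00000276180.1, chr6:27139282-27139678, a single exon) was at 21.2, 20.2 and 19.2 CPM with vehicle and 37.8, 35.5 and 34.0 with DOX. All DOX libraries were higher, with a log2 fold change of 0.85 (SE 0.07, adjusted p = 4.8e-10). Its annotated exon overlaps no other gene and shares 2.01% of its 50-base stretches with others. H4C8, which with H4C2 had the highest mean level of the H4 genes, was at 50.8, 56.4 and 50.6 CPM with vehicle and 54.5, 59.1 and 53.2 with DOX, and these ranges overlapped (0.10, SE 0.06, adjusted p = 0.14). Without vehicle replicate 2 its change passed (0.15, adjusted p = 0.043).

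**Figure D3:**
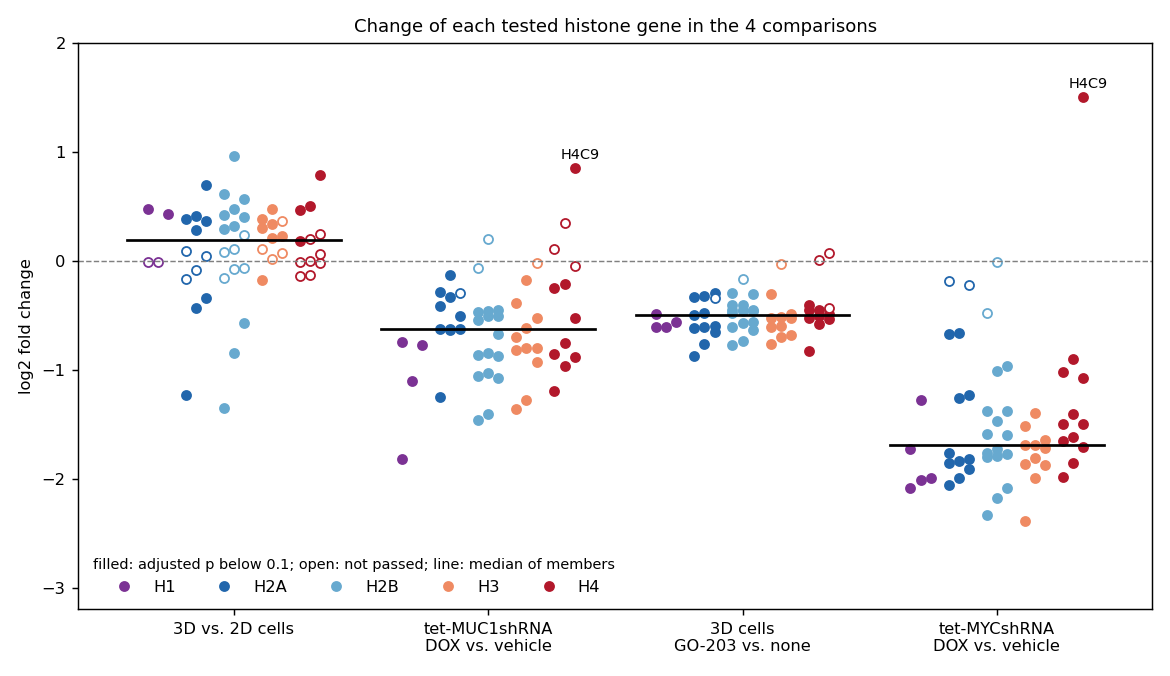
Log2 fold change (vertical axis) of each tested histone gene in the 4 comparisons, coloured by class, with filled points for edgeR adjusted p below 0.1, open points for genes that did not pass and a black line at the median of the members. The medians are 0.19, -0.63, -0.50 and -1.69 from left to right, and H4C9 lies above 0 on both MUC1 and MYC silencing.

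GO-203 asks the same question with a drug on untransfected 3D cells, and most histone genes fell. The GO-203 libraries lack values for other genes than the untreated 3D libraries do, so the treatment and the set of libraries coincide in this comparison and cannot be told apart. Of 56 tested members 50 were downregulated and 6 did not pass; none was upregulated. Over all genes 12.9% were downregulated and 11.1% upregulated. The median log2 fold change was -0.50, against 0.02 for all genes, and the 50 that fell ranged from -0.88 to -0.30. None of them passed an absolute log2 fold change of 1.5, which 0.498% of all genes did upward and 0.26% downward. Untreated and treated libraries did not overlap for 47 members, against 33.1% of all genes. MUC1 itself was at 182 to 222 CPM without and 244 to 264 with GO-203, and MYC at 553 to 601 and 536 to 600. Without 3D replicate 3 the upregulated count was 1.

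The 4 largest falls were of about equal size. H2AC11, an H2A gene, was at 126, 101 and 117 CPM in untreated 3D libraries and 64.3, 63.1 and 56.0 with GO-203, a log2 fold change of -0.88 (SE 0.08, adjusted p = 2.3e-08). H4C16, the H4 gene on chromosome 12, was at 22.3, 16.5 and 18.4 CPM and then at 11.4, 10.5 and 9.53, a log2 fold change of -0.83 (SE 0.11, adjusted p = 6.8e-06). H2BC13, an H2B gene, was at 55.9, 44.9 and 47.4 CPM and then at 30.4, 30.3 and 24.1, a log2 fold change of -0.78 (SE 0.09, adjusted p = 1.2e-06). In all of these the treated libraries lay wholly below the untreated ones. H2AC14, which shares 66.3% of its 50-base stretches with other genes, was at 8.53, 6.56 and 6.41 CPM and then at 4.54, 4.01 and 3.82, a log2 fold change of -0.77 (SE 0.15, adjusted p = 5.9e-04). H4C9 did not pass (0.07, SE 0.10, adjusted p = 0.71), with 12.99, 14.5 and 15.9 CPM in untreated and 15.3, 12.5 and 16.7 in treated libraries. The 3D libraries serve in both this comparison and that with 2D cells, so the changes in the 2 are not independent.

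Silencing MYC, which asks how far the mammosphere programme depends on MYC, was followed by the largest falls. Of 58 tested members 53 were downregulated, 1 was upregulated and 4 did not pass, against 28.1% of all genes downregulated and 30.3% upregulated. The median log2 fold change was -1.69, against 0.01 for all genes. An absolute log2 fold change of 1.5 was passed downward by 36 members, while 3.39% of all genes did so, and upward by 1 member and 7.06% of all genes. Vehicle and DOX libraries did not overlap for 54 members, against 59.5% of all genes.

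H3C12, an H3 gene, fell most. It was at 138, 131 and 106 CPM with vehicle and 16.1, 34.0 and 22.3 with DOX, a log2 fold change of -2.39 (SE 0.22, adjusted p = 8.8e-06). The annotation of H3C12 shares 40.3% of its exon bases with H2AC17, whose own counts were at most 32 in a library. Those counts are uncertain too, since 71.0% of the exon bases of H2AC17 are annotated to H3C12. H2BC14 was at 48.0, 45.2 and 38.2 CPM with vehicle and 7.36, 10.1 and 8.88 with DOX, a log2 fold change of -2.34 (SE 0.13, adjusted p = 2.7e-07). H2BC13 was at 77.5, 70.6 and 58.0 CPM with vehicle and 13.1, 16.6 and 16.4 with DOX, a log2 fold change of -2.18 (SE 0.13, adjusted p = 3.2e-07). H2BC3, an H2B gene, was at 28.8, 27.7 and 21.6 CPM with vehicle and 5.14, 7.13 and 6.37 with DOX, a log2 fold change of -2.09 (SE 0.15, adjusted p = 1.3e-06). For each of these genes the vehicle libraries were at least several times the DOX libraries, and no ranges met.

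By class, all 5 tested H1 genes were downregulated (median -1.99), as were 11 of 13 H2A (median -1.76), 15 of 17 H2B (median -1.60), all 11 H3 (median -1.72) and 11 of 12 H4 genes (median -1.50). The fifth H1 gene, H1-1, had 28 to 59 counts with vehicle and 4 to 10 with DOX. Of the 4 comparisons only this tested it. H1-1 thus passed the low-count filter through the vehicle libraries, and its fall is no support. Among the members with the highest mean of their class over the 21 libraries, H1-2 was at 329, 298 and 273 CPM with vehicle and 107, 148 and 123 with DOX (-1.27, SE 0.11, adjusted p = 5.9e-06). H2AC20 was at 363, 321 and 283 CPM with vehicle and 103, 167 and 140 with DOX (-1.26, SE 0.15, adjusted p = 5.7e-05). H3C3 was at 326, 269 and 228 CPM with vehicle and 56.5, 111 and 90.6 with DOX (-1.69, SE 0.21, adjusted p = 6.7e-05). H4C8, which did not pass on MUC1 silencing, was at 125, 114 and 106 CPM with vehicle and 33.0, 42.9 and 47.8 with DOX (-1.50, SE 0.12, adjusted p = 3.1e-06). Each of these was lower in every DOX library.

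H2BC21 did not pass. It was at 245, 206 and 485 CPM with vehicle and 228, 136 and 316 with DOX. The ranges overlapped, vehicle replicate 3 was the highest library, and the log2 fold change was -0.48 (SE 0.33, adjusted p = 0.25). Without vehicle replicate 3 the change was -0.04, and without DOX replicate 3 it was -0.79 and passed (adjusted p = 0.098). Its head-to-head partner H2AC20, whose promoter shares the octamer printed above, fell by 1.26 on the log2 scale.

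H4C9 again moved upward. It was at 3.59, 4.23 and 4.95 CPM with vehicle and 13.99, 11.05 and 11.7 with DOX, a log2 fold change of 1.51 (SE 0.15, adjusted p = 1.4e-05). Every DOX library was above every vehicle library. H4C14, which carries the same 16-base stem-loop, fell by 1.40 on the log2 scale (SE 0.24, adjusted p = 5.5e-04).

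**Figure D4:**
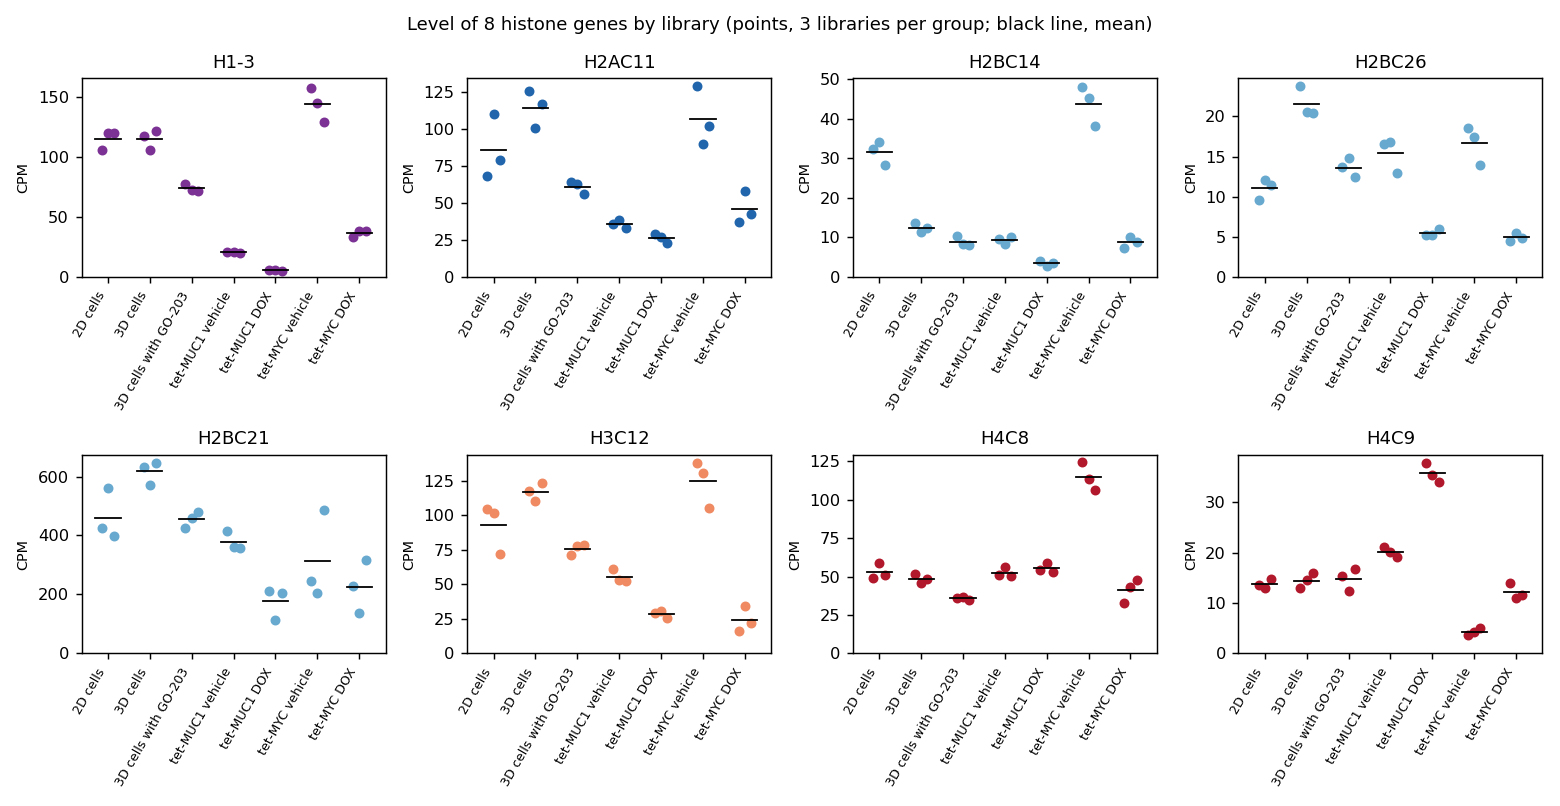
CPM (linear axis from 0) of H1-3, H2AC11, H2BC14, H2BC26, H2BC21, H3C12, H4C8 and H4C9 in each of the 21 libraries, 3 points per group with a black line at the mean. H4C9 is higher with DOX in both tet lines, where H1-3, H2BC14, H2BC26 and H3C12 are lower, and H2BC21 spreads from 206 to 485 CPM within the tet-MYCshRNA vehicle group.

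The 2 DOX effects were compared directly in a fit of 12 libraries with an interaction term. Of 59 tested members, 48 had a lower change on MYC silencing than on MUC1 silencing and 1, H4C9, a higher one (a difference of -0.67, SE 0.16, adjusted p = 1.6e-03), while over all genes the difference passed upward for 26% and downward for 26.9%. The median difference, MUC1 minus MYC silencing, was 0.91 on the log2 scale, against 0.05 for all genes. Library size scaling moved the latter by 0.203. The difference was past 1.5 for 7 members, all upward, against 7.59% of all genes upward and 8.56% downward. H1-1 and H2AC7, with at most 7 counts per tet-MUC1shRNA vehicle library and no test on MUC1 silencing alone, are among the 48 and the 7. Over the 55 members tested in both lines the counts were 46 and 5. H4C8 differed by 1.59 (SE 0.15, adjusted p = 5.8e-08) and H2AC14 by 1.75 (SE 0.27, adjusted p = 3.1e-05). H1-3 fell in both lines, and its difference of 0.16 did not pass (SE 0.12, adjusted p = 0.30). The downregulated lists shared 47 members, which are 97.9% of those of MUC1 silencing and 88.7% of those of MYC silencing, and 44 members fell with MUC1 silencing, GO-203 and MYC silencing alike. Over all genes the lists of MUC1 and MYC silencing shared 38.5% and 42.6% of their genes, and 4.52% of the genes tested fell in all 3 comparisons.

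**Figure D5:**
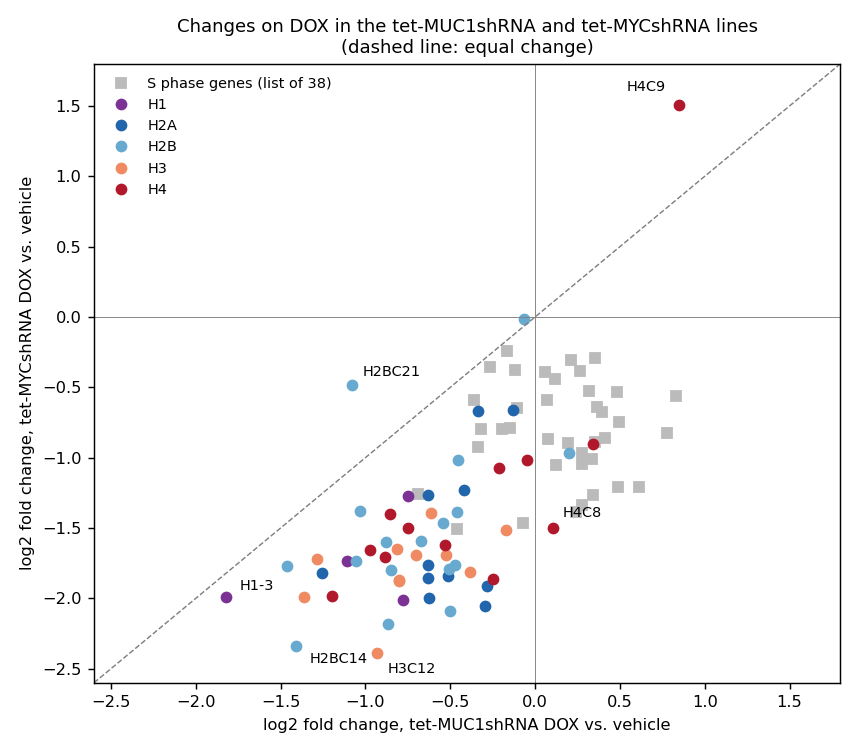
Log2 fold change on DOX in tet-MUC1shRNA mammospheres (horizontal) against that in tet-MYCshRNA mammospheres (vertical) for each histone gene tested in both (circles, by class) and for the 38 listed S phase genes (grey squares); the dashed line marks equal change. Most histone genes lie below the line and left of 0, at medians of -0.63 and -1.69, H4C9 is at 0.85 and 1.51, and the S phase genes have medians of 0.23 and -0.79.

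MUC1 silencing and GO-203 were compared in the same way. The difference passed for 32 of 57 tested members, with 10 lower under GO-203 and 22 lower under MUC1 silencing, against 20.8% and 24.1% of all genes, and the median difference was -0.09. Library size scaling moved the median of all genes by 0.154. It was past 1.5 for 1 member, H2AC7, which had 1 to 7 counts per tet-MUC1shRNA vehicle library and was not tested on MUC1 silencing alone, against 5.07% of all genes upward and 3.51% downward. Over the 55 members tested in both comparisons 9 were lower under GO-203 and 22 under MUC1 silencing, none past 1.5, with a median of -0.13. All 4 tested H1 genes fell more on MUC1 silencing, H1-3 by a further 1.21 on the log2 scale (SE 0.09, adjusted p = 5.9e-11). Of the 12 tested H4 genes 6 were lower under GO-203, among them H4C16 (1.17, SE 0.18, adjusted p = 9.8e-06) and H4C8 (0.51, SE 0.09, adjusted p = 4.2e-05). With all 21 libraries in a single fit the difference passed for 18 members.

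Genes that share a promoter region were set side by side. H2AC14 and H2BC14, whose starts lie 244 bases apart around the octamer printed above, changed by -2.05 and -2.34 on MYC silencing, but by -0.29 (adjusted p = 0.33) and -1.41 on MUC1 silencing, where H2AC14 had only 40 to 80 counts per library. H2AC25 and H2BC26, 229 bases apart, changed by 0.70 and 0.96 in 3D cells, by -1.26 and -1.46 on MUC1 silencing and by -1.82 and -1.77 on MYC silencing. H2BC21 and H2AC20, 235 bases apart, changed by -1.08 and -0.63 on MUC1 silencing and by -0.41 and -0.30 with GO-203. Among H2A and H2B genes the medians with and without the octamer were -1.59 and -1.80 on MYC silencing, -0.51 and -0.75 on MUC1 silencing, -0.46 and -0.60 with GO-203 and 0.08 and 0.45 in 3D cells, with 6 genes lacking it in each. No difference between pairs or between these sets was tested.

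Members known to give a polyadenylated form bear on what these libraries capture. The 6 genes H1-2, H2AC6, H2BC4, H2BC5, H2BC12 and H2BC21 made up 29.9% to 30.2% of the summed histone CPM in 2D libraries and 32.6% to 33.2% in 3D libraries. In tet-MYCshRNA mammospheres their share was 22.1% to 27.6% with vehicle and 30.0% to 37.0% with DOX. It was 32.7% to 34.7% with vehicle and 30.9% to 35.6% with DOX in tet-MUC1shRNA mammospheres, which overlap. With GO-203 it was 33.1% to 35.3%. On MYC silencing 5 of the 6 were downregulated, with a median of -0.99, and 48 of 52 other members, with a median of -1.73. On MUC1 silencing the medians were -0.50 and -0.63, and with GO-203 they were -0.43 and -0.52. In 3D cells 4 of the 6 were upregulated (median 0.31) and 21 of the 50 others (median 0.15). No difference between these sets was tested.

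H2BC4, H2BC5, H2AC6 and H2BC12 were examined singly. H2BC4, of whose exon bases 30.9% lie antisense to other genes, was at 262, 230 and 210 CPM with tet-MYCshRNA vehicle and 79.5, 86.2 and 91.9 with DOX (-1.47, SE 0.09, adjusted p = 4.4e-07). H2BC5 was at 122, 112 and 95.3 CPM and then at 49.6, 63.0 and 53.0 (-1.01, SE 0.11, adjusted p = 2.5e-05). H2AC6 was at 139, 132 and 111 CPM and then at 67.3, 92.9 and 84.4 (-0.66, SE 0.12, adjusted p = 8.4e-04). All of these were lower in each DOX library. On MUC1 silencing H2AC6, counted among the 48 that fell, changed by -0.13 (edgeR adjusted p = 0.048). It was at 96.4, 85.8 and 84.7 CPM with vehicle and 80.2, 83.7 and 76.1 with DOX. That fall did not hold, since it was 0.037 with library size alone and lost the threshold without vehicle replicate 1, DOX replicate 1 or DOX replicate 3. H2BC12, which shares 57.2% of its 50-base stretches with other genes, was at 73.2, 43.4 and 71.8 CPM with tet-MUC1shRNA vehicle and 72.7, 71.9 and 68.4 with DOX (0.20, SE 0.11, adjusted p = 0.14). Its ranges overlapped, and vehicle replicate 2 was the low library. The change was 0.31 and passed without vehicle replicate 1 or replicate 3, and -0.01 without vehicle replicate 2.

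The S phase genes, a list of 38 that includes the MCM helicase, PCNA and nucleotide synthesis genes, did not follow the histone genes in every comparison. On MYC silencing 37 of 38 were downregulated (median -0.79), for instance RRM2, a ribonucleotide reductase subunit (-1.51), and RFC3, a clamp loader subunit (-1.47). With GO-203 28 were downregulated and none upregulated (median -0.31). On MUC1 silencing, where 48 histone genes fell, 20 S phase genes were upregulated and 9 downregulated (median 0.23). Those upregulated included CCNE2, a cyclin of the G1/S step (0.83), and GINS4 (0.78), and those downregulated included CCNA2, the S and G2 phase cyclin (-0.69), and RRM2 (-0.46). In 3D cells 16 were upregulated and 9 downregulated (median 0.02). Of all genes 28.1% fell on MYC silencing and 12.9% with GO-203. On MUC1 silencing 30.7% of all genes rose and 31.6% fell, and in 3D cells 32% and 31.7%. The part of the cell cycle in the histone changes was not tested.

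Of 14 factors that cut the histone 3′ end at the stem-loop, 12 were downregulated on MYC silencing (median -0.38). SLBP fell by 0.36 and the U7 snRNP proteins' shared Sm subunit SNRPF by 1.20 on the log2 scale. On MUC1 silencing 8 were downregulated and 3 upregulated (median -0.16). SLBP fell by 0.33 and LSM11, a U7-specific subunit, by 0.81, while SNRPD3 rose by 0.89. In 3D cells 8 were upregulated and 1 downregulated, SLBP by 0.33 and LSM11 by 0.67. With GO-203 1 was upregulated and 3 downregulated. Of all genes 28.1% fell on MYC silencing, and 30.7% rose and 31.6% fell on MUC1 silencing. The shares that rose and fell were 32% and 31.7% in 3D cells and 11.1% and 12.9% with GO-203.

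Of 9 genes for transcription at the histone loci, 6 were downregulated and 3 upregulated on MYC silencing. CCNE1, the cyclin E1 gene, fell by 0.62, POU2F1, which encodes OCT1, by 0.57, and NPAT, the coactivator of histone genes, rose by 0.20 (adjusted p = 0.095). On MUC1 silencing 4 rose and 3 fell, among them CCNE1 (0.58) and NPAT (-0.10, adjusted p = 0.079). With GO-203 5 of the 9 fell and none rose, against 12.9% and 11.1% of all genes, and in 3D cells 6 rose and 1 fell. Of 12 genes for cap binding and the choice of poly(A) sites, 9 were downregulated on MYC silencing, 7 on MUC1 silencing and 4 with GO-203, and 8 were upregulated in 3D cells. In the other direction 1 rose on MUC1 silencing and 1 with GO-203. Of 10 genes for histone mRNA decay, 5 fell and 2 rose on MYC silencing, and 4 fell and 4 rose on MUC1 silencing, where 31.6% of all genes fell and 30.7% rose. With GO-203 2 of the 10 fell and none rose, and in 3D cells 4 rose and 1 fell. The counts of these lists stand against the shares of all genes given above for each comparison. The part of these factors in the histone changes was not tested.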

How the data were processed

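RNA of 21 cultures was sequenced as stranded, poly(A)-selected libraries. Per the labels and methods, STAR (2.7.3a in the submitters' processing notes) aligned reads to GRCh38 and featureCounts counted them. The authors deposited raw counts without normalization. The annotation release, strand setting and handling of multimapping reads are not given in the sources used here. The members, gene lists and tests were chosen with earlier results of these data known. Genes with no value in a set of libraries, 24 cells among the members, were read as 0. The 2D and 3D, tet-MUC1shRNA and tet-MYCshRNA sets list no gene whose total is 0, while the GO-203 libraries do. Each comparison used only its own 6 libraries and edgeR 4.0.16 in R 4.3.3 (filterByExpr, TMM factors, quasi-likelihood test, Benjamini-Hochberg adjustment over all genes tested). SE is the absolute log2 fold change over the square root of F. The fits were tested on simulated data.

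Members given in full are the 4 largest changes per comparison among those past the threshold with groups apart and a mean count of at least 100, the highest of each class, and the 6 with a known polyadenylated form. Other members, and genes of the lists beyond their 3 largest changes in each direction, were named after their values were seen. The alternatives tried were DESeq2 1.42.0, RLE factors, library size alone, no filter on low counts, a minimum of 10 counts per library, a joint fit of 21 libraries, a replicate block, an absolute log2 fold change above 1.5, an adjusted p below 0.05 and the removal of each library. Between replicates the chi-square statistic per degree of freedom was 4.36 to 52.8 (21 pairs), so no 2 libraries were alike within counting error. Some items are not reported here.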

Additional observations from a re-analysis of the deposited data

Results flagged for a closer look

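The DOX effect differed between tet-MUC1shRNA and tet-MYCshRNA mammospheres for 49 histone genes by the interaction term of edgeR's quasi-likelihood test at an adjusted p below 0.1, against 52.9% of all genes tested. The difference was positive, with the change on MYC silencing the lower one, for 48 of them and negative for 1, H4C9. The 48 include H1-1 and H2AC7, which were too low to test on MUC1 silencing alone. None of the members that passed in both lines moved in opposite directions.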

How the results depend on the processing

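The counts of members called stayed within 1.5 times the reported ones under most alternatives. With an absolute log2 fold change above 1.5 required, the counts were 0 up and 0 down in 3D vs. 2D cells, 0 up and 1 down on MUC1 silencing, 0 down with GO-203, 7 for the difference between MUC1 and MYC silencing and 1 for that between MUC1 silencing and GO-203, which was 18 with all 21 libraries in one fit. The upregulated count on MUC1 silencing, 1 as reported, was 4 with library size alone, 3 with no low-count filter, 4 with at least 10 counts in every library, 3 with all libraries in one fit and 2 with the replicate block. Leaving out 1 library gave 2 to 3 upregulated and 43 to 48 downregulated members on MUC1 silencing, 21 to 29 up and 5 to 11 down in 3D vs. 2D cells (11 without 2D replicate 1), 0 to 1 up and 46 to 51 down with GO-203 and 53 to 54 down on MYC silencing. The 2 differences ranged from 44 to 54 and from 28 to 31.

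Direction turned for H3C11, H2AC6, H1-3, H2BC5 and H2BC12, of which H2AC6 is among the members called downregulated on MUC1 silencing (-0.13). With library size alone H3C11 was at -0.049 and H2AC6 at -0.020 in 3D vs. 2D cells, and H2AC6 at 0.037 on MUC1 silencing. With at least 10 counts in every library H3C11 was at -0.0011 in 3D vs. 2D cells. Leaving out 1 library, the changes in 3D vs. 2D cells ranged from -0.062 to 0.065 for H1-3, -0.085 to 0.094 for H3C11, -0.036 to 0.169 for H2AC6 and -0.131 to 0.054 for H2BC5, and that of H2BC12 on MUC1 silencing from -0.013 without vehicle replicate 2 to 0.314 without vehicle replicate 1.

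Replicate numbers in the labels number cultures, and same-numbered libraries did not deviate together in every pair (correlations of -0.34 to 0.17). With the replicate block 54 members were downregulated on MYC silencing and 48 on MUC1 silencing, 51 with GO-203, and 25 up and 7 down in 3D vs. 2D cells. The block brought H2BC21 on MYC silencing (-0.46, edgeR adjusted p = 0.0079) and H2BC12 on MUC1 silencing (0.23, adjusted p = 0.022) past the threshold. With no low-count filter H2BC21 passed at an adjusted p of 1.1e-10 although its groups overlap, and with DESeq2 it did not (adjusted p = 0.45). The causes were not tested. Depth limits the 11 members under 100 counts in every library, and others within a comparison, such as H2AC14 with 40 to 80 counts per tet-MUC1shRNA library.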

Other observations

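Histone genes outside the replication-dependent clusters were counted in the same way. Of 12 replication-independent variants 7 were downregulated and 2 upregulated on MYC silencing (median -0.34), and 5 were downregulated and 4 upregulated on MUC1 silencing (median -0.10). With GO-203 5 were downregulated and none upregulated, and in 3D vs. 2D cells 5 were downregulated and 3 upregulated. Of all genes 28.1% fell on MYC silencing, 31.6% on MUC1 silencing, 12.9% with GO-203 and 31.7% in 3D vs. 2D cells. H1-10, a linker histone, rose in 3D vs. 2D cells (0.55, edgeR adjusted p = 3.0e-05) and fell on MUC1 silencing (-0.66) and with GO-203 (-0.41). H2AX and H2AZ1 rose on MUC1 silencing (0.45 and 0.19) and fell on MYC silencing (-0.78 and -0.76). CENPA, the centromeric H3, fell in 3D cells (-0.68) and on MUC1 and MYC silencing (-0.26 and -1.11).

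Of 16 histone chaperones, which carry histones to DNA, 9 were upregulated and 2 downregulated on MUC1 silencing (median 0.14), while 8 were downregulated and 3 upregulated on MYC silencing (median -0.32). Of all genes 30.7% rose and 31.6% fell on MUC1 silencing, and 30.3% rose and 28.1% fell on MYC silencing. ASF1B rose by 0.87 on MUC1 silencing and fell by 0.45 on MYC silencing and by 0.50 with GO-203. NASP rose by 0.53 on MUC1 silencing, and its change of -0.11 on MYC silencing did not pass.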
